A study of Danio rerio with 6 samples.

Results

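The chloride channels of epithelia treated here are the chloride intracellular channel genes clic1, clic2, clic3, clic4, clic5a and clic5b, the cyclic-AMP-gated channel gene cftr, the kidney-type channel gene clcnk and the calcium-activated channel genes ano1a and ano1b. They were chosen by gene name, from a list of 10 names drawn up with the pax2a-high and pax2a-low counts of these libraries already known. Of the 10 names, 8 matched a row of the 32059-row table, and ano1a and ano1b matched none. A row named ano1, which the RefSeq gene table gives as a synonym of ano1a, is described beside the members but is not counted as one. Because that contrast was in view when the names were chosen, the members' values are given as a description, and where a member is said to pass a threshold, that is no independent test of it.

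The libraries came from sorted thyroid follicular cells of zebrafish at 5 months of age. All fish carried Tg(tg:nls-EGFP), a nuclear EGFP reporter under the thyroglobulin promoter, and pax2a:mKO2-Knock-in, a reporter at the locus of the thyroid transcription factor pax2a. Cells bright in mKO2 gave 3 pax2a-high libraries and cells dim in mKO2 gave 3 pax2a-low libraries. The labels do not say whether replicates came from separate fish, so errors measure the spread between these libraries, which may be technical.

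Thyroid follicular cells are polarised: iodide enters at the basolateral side and leaves through the apical membrane into the follicle lumen, where thyroglobulin is iodinated. Apical anion channels and exchangers carry that exit, and in mammals the calcium-activated channel ANO1 and the exchanger pendrin have been described there. CLIC proteins are small proteins that exist in soluble and membrane-bound forms. CLIC5 is best known, in mammals, as a partner of the actin-binding proteins ezrin, radixin and taperin at microvilli and hair-cell stereocilia, and whether CLIC proteins conduct chloride in cells is debated. In zebrafish skin and gill, chloride is taken up by ionocytes that use the cotransporter slc12a10.2 at the apical side and the channel clcn2c at the basolateral side.

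Library totals were 18014891 to 35403210 counts in pax2a-high against 6053741 to 10932845 in pax2a-low, so that 3 counts, used here as the floor of detection, corresponded to 0.0842 to 0.183 and 0.234 to 0.578 CPM (counts per 1000000 counts of the scaled library). Mitochondrial rows took 0.799 to 1.17% of pax2a-high and 24.1 to 49.0% of pax2a-low counts. Thyroglobulin (tg) took 15.3 to 24.0% of pax2a-high counts and 0.454, 0.398 and 3.80% of those of pax2a-low replicates 1, 2 and 3. The sorted gene pax2a had 4969, 8521 and 20604 counts in pax2a-high against 12, 10 and 2014 in pax2a-low replicates 1, 2 and 3, so pax2a-low replicate 3 stood apart from the other pax2a-low libraries. The reporter mKO2 had 74, 671 and 654 counts in pax2a-high against 0, 6 and 0 in pax2a-low replicates 1, 2 and 3. Ionocyte markers went against the follicular label of the pax2a-low libraries. The summed level of 19 such markers was 86.3 to 105 CPM in pax2a-high against 4218 to 7483 CPM in pax2a-low libraries. Of the 19, 9 were at 0 in every pax2a-high library. Of these, rhcga, rhbg, ca15a and kcnj1a.5 had counts in every pax2a-low library. The rest, foxi3a, foxi1, gcm2, rhcgb and slc4a1b, were each also at 0 in some pax2a-low library. The mean of atp6v1ab was higher in pax2a-high (1.59 against 0.3 CPM), and the levels of atp6v0a1a overlapped. By edgeR, 7 of 12 tested ionocyte markers were lower in pax2a-high. For the 12 thyroid markers the sum was 158843 to 241289 CPM on the pax2a-high side and 3604 to 32935 CPM on the other, with 2 of 10 tested called higher. Nearly all of that sum was tg, at 157414 to 238990 and 3554 to 32404 CPM. The levels of foxe1 and nkx2.1 overlapped between the groups, and those of the other thyroid markers did not. Among all tested genes, 21.4% likewise had every pax2a-high library above every pax2a-low one. For pax8 the lowest pax2a-high library (184 CPM) lay next to the highest pax2a-low one (183 CPM). Summed levels overlapped between the groups for endothelium (53.9 to 85.1 and 32.0 to 124 CPM), erythrocytes (11.7 to 24.5 and 0.386 to 47.7 CPM) and epidermis (255 to 1596 and 657 to 3749 CPM), pax2a-high given first. They also overlapped for mucous cells (67.1 to 862 and 28.9 to 1278 CPM) and fibroblasts (32.6 to 129 and 3.86 to 133 CPM). In bulk RNA, fewer cells of a type and less RNA per cell cannot be told apart.

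The members fell into distinct patterns. The paralogs clic5a and clic5b were detected in the pax2a-high libraries and at 0 counts in every pax2a-low library. The gene clic4 was present in all 6 libraries and higher in every pax2a-high one, while clic1 showed no set direction. Of the rest, clic3 was mostly a pax2a-low transcript, clic2 and clcnk were each confined to 1 or 2 libraries at low counts, and cftr had no count in any library. Detected members numbered 4, 5 and 5 of 8 in pax2a-high replicates 1, 2 and 3 and 2, 4 and 4 of 8 in pax2a-low.

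**Figure D1:**
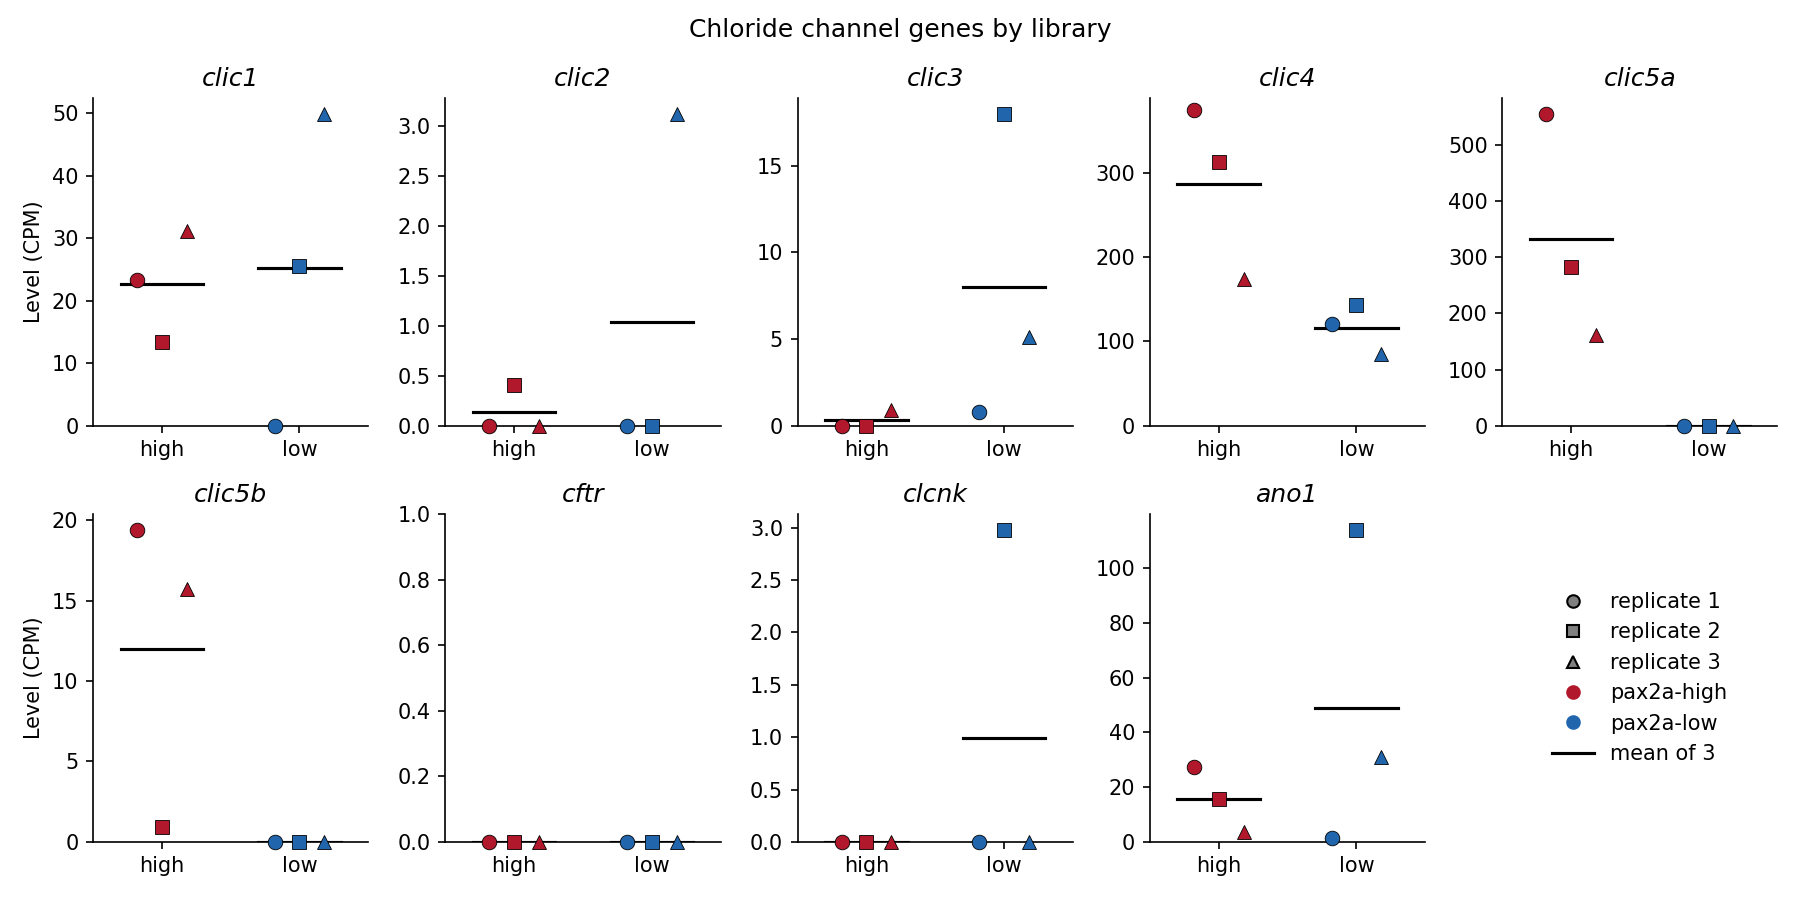
Level of each matched member and of the row named ano1, in CPM over the TMM-scaled library size, with 1 point per library and a line at the mean of 3; each panel has its own axis, so levels are not compared between genes. The 3 pax2a-low points lie at 0 for clic5a and clic5b, and the 3 pax2a-high points of clic4 (174 to 374 CPM) lie above its pax2a-low points (85.2 to 143 CPM).

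The gene with the widest separation was clic5a (ENSDARG00000075993), a homolog of mammalian CLIC5. It had 9108, 5567 and 5721 counts in pax2a-high replicates 1, 2 and 3 and 0 in each pax2a-low library. These are 556, 282 and 161 CPM, a mean of 333 ± 203 CPM (SD, n = 3), against zeros that allow up to 0.578, 0.372 and 0.234 CPM in pax2a-low replicates 1, 2 and 3. Within pax2a-high, the highest library was 3.46 times the lowest, so the spread inside the group was wide but far smaller than the distance to the pax2a-low libraries. With each pax2a-low zero replaced by the floor of 3 counts, clic5a was 843-fold higher in pax2a-high cells. This bound treats each count as independent and leaves out the spread between libraries. Most counts above 0 were even numbers, so the floor may be too low and the fold too large.

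Thyroglobulin reads were present in the pax2a-low libraries, which allows a comparison inside each library that does not depend on how libraries are scaled. Per 1000000 tg counts, clic5a had 2794, 1789 and 672 counts in pax2a-high replicates 1, 2 and 3. In pax2a-low replicate 3 it had 0 counts beside 415881 tg counts, which allows at most 7.21 per 1000000. At the lowest and the highest pax2a-high ratio, that many tg counts would go with 280.0 and 1162 clic5a counts. The smaller tg totals of pax2a-low replicates 1 and 2, 27470 and 28642, would go with 18.5 to 76.8 and 19.3 to 80.0 clic5a counts, and there too 0 were found. Of follicular genes described below, some fell short there too: tshr had 0 counts in replicate 1 (31.3 to 40.0 at the pax2a-high ratios). The gene pax2a had 12 and 10 counts in replicates 1 and 2 (41.9 to 75.2 and 43.7 to 78.4), and slc5a5 had 24 in replicate 2 (32.1 to 50.5). Counts above those ranges were 50 for tshr in replicate 2 (32.7 to 41.7) and 73 for slc5a5 in replicate 1 (30.8 to 48.4).

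Other follicular genes differed in how they stood to tg in pax2a-low replicate 3. The thyrotropin receptor gene tshr stood at 1141, 1249 and 1454 counts per 1000000 tg counts in pax2a-high replicates 1, 2 and 3 and at 1500 in pax2a-low replicate 3, slightly above that range. For pax2a itself the value of 4843 in pax2a-low replicate 3 exceeded the 1524, 2738 and 2421 of the pax2a-high libraries. The iodide symporter gene slc5a5, which brings iodide into the cell, was below its pax2a-high ratios: 80 counts were found where the pax2a-high ratios give 467 to 733. Two-way differences also held for other thyroid markers. With 22 and 18 counts there, dio1 and hhex were below their pax2a-high ratios to tg. With 2349, 946, 416 and 340 counts, pax8, duox, nkx2.4b and foxe1 were above theirs. These markers were set against tg after their values were seen. Among genes tested, 544 would have at least as many counts in that library as clic5a, each taken at its lowest pax2a-high ratio to tg. Of those 544, 3 were at 0 there, namely clic5a, f3b and RALGDS, which were singled out after their values were seen. That limit is clic5a's own value. With a limit of 100 counts instead, 57 of 1624 genes (3.51%) were at 0. The 544 genes were taken from all tested genes and not from follicular ones. They include clic4, which had 1094 counts there where its pax2a-high ratios give 303 to 827. The number at 0 is therefore no measure of how unusual clic5a is among follicular genes. The summed level of the ionocyte markers was higher in pax2a-low replicate 3 than in any pax2a-high library, but single markers were split. In that library foxi3a, foxi1, rhcgb and slc4a1b were at 0, as in the pax2a-high libraries. There, slc9a3.2 and slc4a4b were below every pax2a-high library, and atp6v1ab and atp6v0a1a were below at least one of them. The part of ionocyte markers in these ratios was not tested.

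**Figure D2:**
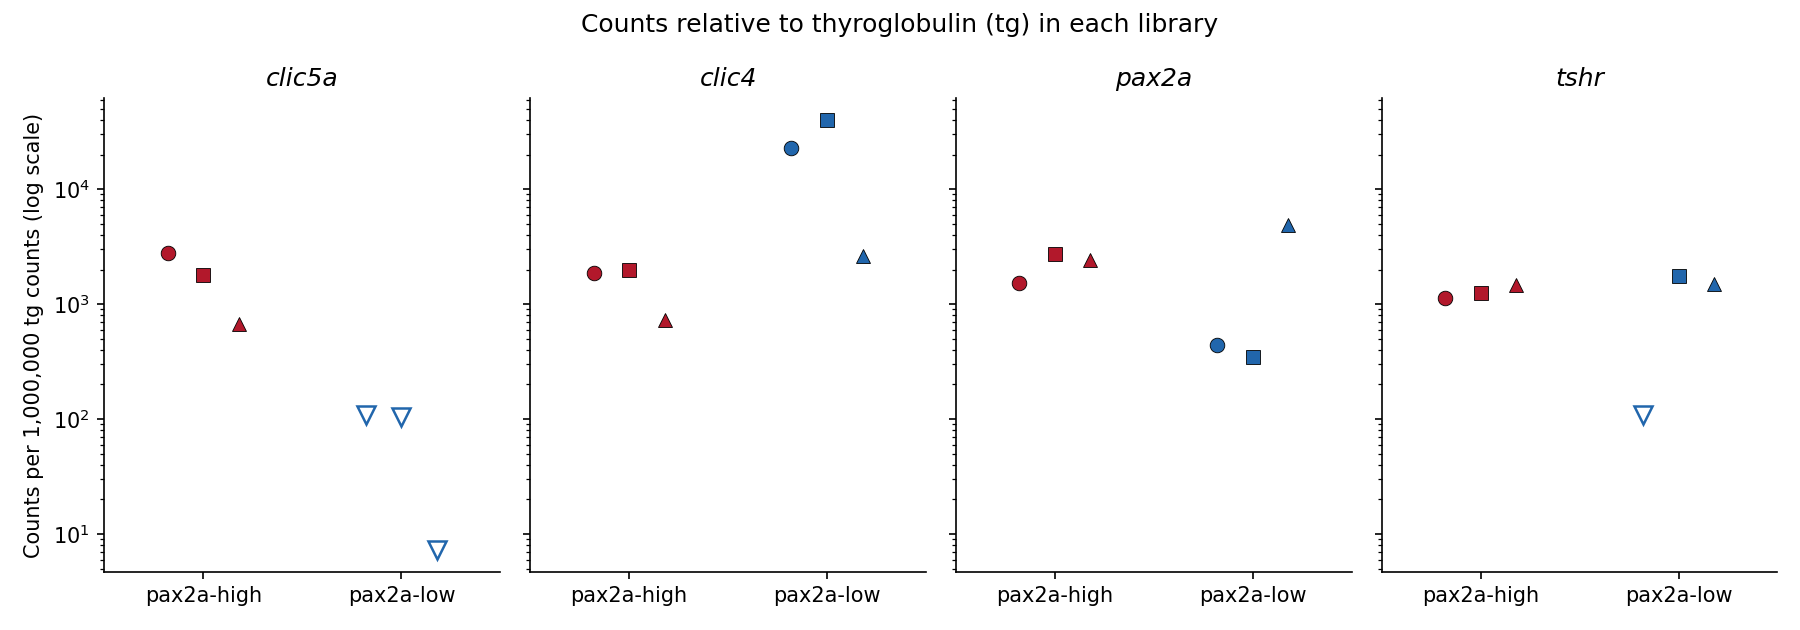
Counts of clic5a, clic4, pax2a and tshr per 1000000 tg counts in each library, on a log axis; filled symbols (circle, square, triangle) are replicates 1, 2 and 3 and open downward triangles mark the limit of 3 counts where 0 were found. In pax2a-low replicate 3, tshr (1500) lies near its pax2a-high values (1141 to 1454) while the limit for clic5a (7.21) lies below its pax2a-high values (672 to 2794). Of thyroid markers not shown, slc5a5, dio1 and hhex were below their pax2a-high ratios in that library. Others, pax8, duox, nkx2.4b and foxe1, were above theirs.

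The paralog clic5b (ENSDARG00000070584) had the same direction at a much lower count. It had 318, 18 and 559 counts in pax2a-high replicates 1, 2 and 3 and 0 in all pax2a-low libraries, or 19.4, 0.911 and 15.7 CPM against 0. The second pax2a-high library was thus far below the other two, and the highest was 21.3 times the lowest. The mean of 12 ± 9.79 CPM (SD, n = 3) was 30.4-fold above the floor of 3 counts per library. The 0.911 CPM of pax2a-high replicate 2 lay close to the pax2a-low floors of 0.234 to 0.578 CPM. The fitted log2 fold change of 10.61 had an SE of 3.83 and rests on a group at 0 counts. Relative to tg the zeros of clic5b carry little weight, since 415881 tg counts would go with 2.41 to 40.6 clic5b counts at the pax2a-high ratios. The RefSeq table lists clic5a among the synonyms of clic5b, so the identifiers decide which gene is meant. Reads shared by these paralogs could be split differently.

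Taken per 1000 clic4 counts of the same library, clic5a had 1488, 900.0 and 922 counts in pax2a-high replicates 1, 2 and 3. The same ratio for clic5b was 51.9, 2.91 and 90.1. The ratio of clic5a to clic4 thus varied less across pax2a-high libraries than that of clic5b. In pax2a-low libraries 624, 1156 and 1094 clic4 counts were accompanied by 0 clic5a counts, which allows at most 4.81, 2.60 and 2.74 per 1000.

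The gene clic4 (ENSDARG00000022995), whose mammalian protein moves between cytosol, membranes and nucleus, was expressed throughout. Its levels were 374, 313 and 174 CPM in pax2a-high against 120, 143 and 85.2 CPM in pax2a-low replicates 1, 2 and 3. The groups did not overlap, though the lowest pax2a-high library and the highest pax2a-low library lay close together. Means were 287 ± 102 and 116 ± 29.3 CPM (SD, n = 3 each), a log2 fold change of 1.30 (SE 0.54), where a positive value means higher in pax2a-high cells, here and below. Relative to tg the order turned round: clic4 stood at 729 to 1988 counts per 1000000 tg counts in pax2a-high against at 22716, 40360 and 2631 in pax2a-low replicates 1, 2 and 3.

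The gene clic1 (ENSDARG00000103340), in mammals a broadly expressed member of the family, varied more within the pax2a-low group than between the groups. It was at 23.3, 13.4 and 31.1 CPM in pax2a-high against at 0, 25.6 and 49.9 CPM in pax2a-low replicates 1, 2 and 3. The pax2a-low values enclosed all of the pax2a-high values. The log2 fold change was -0.16 (SE 1.79), and its sign changed with the tool and with the libraries used.

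The gene clic3 (ENSDARG00000044776) was mostly found in pax2a-low cells. It had 0, 0 and 32 counts in pax2a-high against 4, 145 and 66 counts in pax2a-low replicates 1, 2 and 3, or 0, 0 and 0.898 CPM against 0.771, 18 and 5.14 CPM. The groups overlapped, because pax2a-low replicate 1 lay below pax2a-high replicate 3, and the log2 fold change of -4.68 had an SE of 3.0. Without pax2a-high replicate 3 it was -9.62, a value that then rests on a group at 0 counts. The summed ionocyte markers were also higher in pax2a-low libraries. Within that group some did not follow clic3: foxi3b was at 334, 438 and 258 CPM and atp1b1b at 2401, 2226 and 2930 CPM in replicates 1, 2 and 3. Others, trpv6 among them (87.9, 483 and 177 CPM), had the same order as clic3. The sum of 12 macrophage and leukocyte markers was 28.4 to 172 CPM in pax2a-high against 594 to 1510 CPM in pax2a-low libraries, and edgeR called 0 of the 6 tested. The markers were split: mean levels of cd74a (47.8 and 570.0 CPM), cd74b (38.7 and 299 CPM) and mpeg1.2 (3.01 and 96.1 CPM), pax2a-high first, made up most of the sum, whereas ptprc (7.16 and 1.87 CPM) and coro1a (3.0 and 1.82 CPM) had the higher mean in pax2a-high. Of the 12, cxcr3.2 was at 0 in all pax2a-high libraries and lcp1 in all pax2a-low ones. The part of either cell type in the clic3 level was not tested.

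Sparse members gave values in few libraries. The gene clic2 (ENSDARG00000010625) had 8 counts in pax2a-high replicate 2 and 40 in pax2a-low replicate 3, with 0 elsewhere. The 40 counts are 3.12 CPM, with an exact Poisson 95% interval of 2.23 to 4.24 CPM. Such intervals treat each count as independent and leave out the spread between libraries. Most counts above 0 were even numbers, so these intervals may be too narrow even for counting error. The gene clcnk (ENSDARG00000022560), whose mammalian counterparts are basolateral channels of the kidney and inner ear, had 24 counts in pax2a-low replicate 2, or 2.98 CPM (exact Poisson 95% interval 1.91 to 4.43), and 0 in the other 5 libraries. The gene cftr (ENSDARG00000041107) was at 0 in all 6, which allows up to 0.183, 0.152 and 0.0842 CPM in pax2a-high against 0.578, 0.372 and 0.234 CPM in pax2a-low replicates 1, 2 and 3. Its transcript was not detectable at this depth in either population.

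The row named ano1 (ENSDARG00000102335) was detected in all 6 libraries. Levels were 27.3, 15.8 and 3.65 CPM in pax2a-high against 1.54, 114 and 31.0 CPM in pax2a-low replicates 1, 2 and 3. Both extremes lay in the pax2a-low group, whose highest library was 74.1 times its lowest. Means were 15.6 ± 11.8 and 48.9 ± 58.5 CPM (SD, n = 3 each), with a log2 fold change of -1.65 (SE 1.51) that became -0.11 without pax2a-low replicate 2.

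Over all genes, 12524 passed the filter on low counts, and their median log2 fold change was 0.35. Of the 8 members, 5 passed that filter and 1, clic5a, was past the threshold of 0.05 on the Benjamini-Hochberg adjusted p of edgeR's quasi-likelihood test, on the higher side. Among all tested genes 1.12% were called higher and 1.46% lower in pax2a-high cells. Levels did not overlap, with every pax2a-high library above every pax2a-low one, for the 3 members clic4, clic5a and clic5b, and for 21.4% of all tested genes. As the names were chosen with this contrast known, these counts of members are neither a test nor support for any of them. The genes clic2, cftr and clcnk did not pass the filter.

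**Figure D3:**
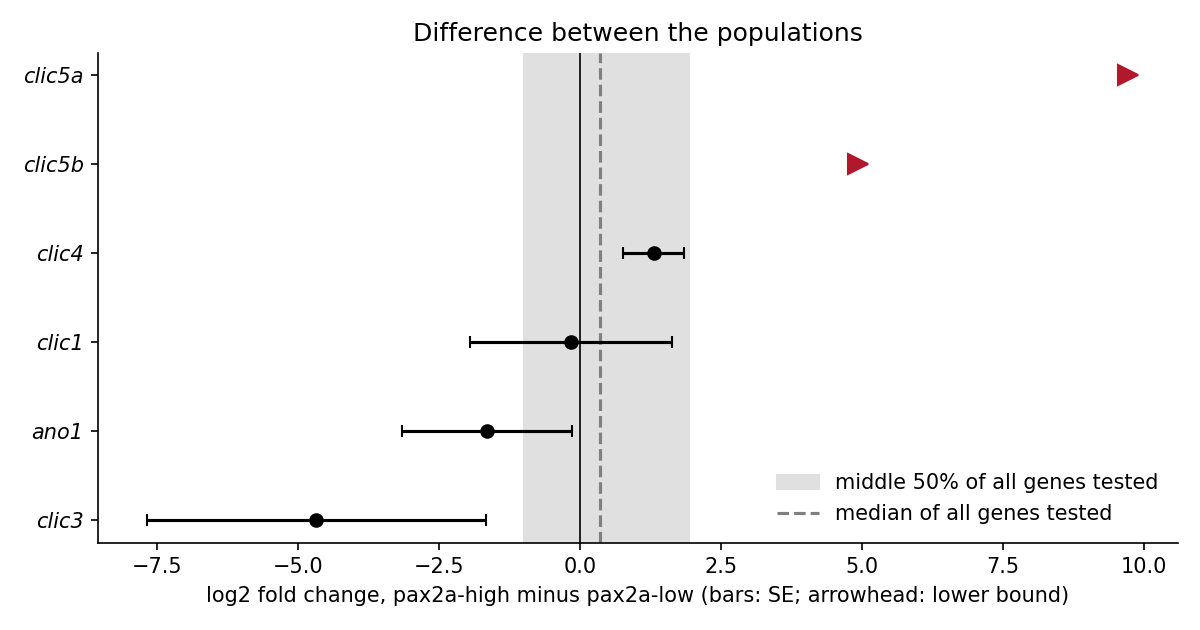
Log2 fold change of the tested members and of the row named ano1, pax2a-high minus pax2a-low; bars are standard errors and arrowheads are lower bounds for genes at 0 counts in pax2a-low. The bounds for clic5a (9.72) and clic5b (4.93) lie to the right of the grey band that holds the middle 50% of all genes tested (-1.0 to 1.92), and the bar of clic1 crosses 0.

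Genes with the most similar profile were found by Pearson's r of log2(CPM + 0.5) over the 6 libraries, among 8720 genes with a mean of at least 5 CPM. These values describe likeness over points that share their library and depth. For clic5a the closest were sfxn1, tph1b and slc22a16, each with r of at least 0.9996, and 86 genes exceeded 0.99. All 3 were at 0 in the pax2a-low libraries and followed the same descent across the pax2a-high ones; sfxn1, for example, was at 41.6, 28.1 and 19.7 CPM in pax2a-high replicates 1, 2 and 3. The closest to clic5b were adgra3 (0.993), lingo1b (0.988) and rin3 (0.987), which shared its low value in pax2a-high replicate 2. The closest to clic4 were usp19 (0.99), ep300a (0.989) and ier5 (0.988). For clic1 they were med1, tcea3 and fgfr1op (0.999, 0.999 and 0.998), of which med1 and fgfr1op were, like clic1, at 0 in pax2a-low replicate 1.

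For clic3 the closest were the chemokine gene cxcl19 (0.984), ccdc28a (0.983) and hsh2d (0.976). The chemokine transcript was at 0.386, 240.0 and 37.3 CPM in pax2a-low replicates 1, 2 and 3 and at no more than 1.04 CPM in pax2a-high. The row named ano1 was closest to dyrk2 (0.980), ehbp1l1a (0.965) and nectin4a (0.956), each highest in pax2a-low replicate 2. Among the members themselves, r was 0.89 between clic4 and clic5a, 0.85 between clic5a and clic5b and -0.78 between clic3 and clic5a. These values include the difference between the groups, with which the names were chosen. Within pax2a-high, clic5a fell from replicate 1 to replicate 3 (556, 282 and 161 CPM), while clic5b was lowest in replicate 2 (19.4, 0.911 and 15.7 CPM).

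To place the members in their pathway, 6 lists of other chloride channels, regulators and transporters were examined in the same fit. Together they held 106 genes with a row, of which 65 were tested, and edgeR called 0 of them higher and 1 lower on the pax2a-high side. Among all tested genes 1.12% were called higher and 1.46% lower. At an unadjusted edgeR p under 0.05, a limit also used for the lists below, 1222 of the 12524 tested genes were higher and 576 lower. The lists, like the members, were chosen with earlier results of these data known. Neither these counts nor the p-values of list genes are therefore an independent test. The list gene called lower was sgk2a, a serum- and glucocorticoid-regulated kinase. Kinases of this family control ion channels at the membrane. Its levels were 0, 0.101 and 0.365 CPM in pax2a-high against 335, 88.8 and 238 CPM in pax2a-low replicates 1, 2 and 3. No pax2a-high library came near the pax2a-low range, and the log2 fold change was -10.29 (SE 1.25 and adjusted p = 0.000111 by edgeR). Over 13 alternatives the adjusted p ran from 2.5e-18 to 0.00532. The summed ionocyte markers were also higher in the pax2a-low libraries, and their part was not tested.

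CLC proteins other than clcnk, which are chloride channels of the plasma membrane and chloride-proton exchangers of endosomes and lysosomes, had a median log2 fold change of 0.58 over 7 tested genes. None was called higher or lower by edgeR, 0 had an unadjusted p under 0.05, and DESeq2 and limma called 0. The endosomal exchanger gene clcn5b was at 86.1, 13.4 and 45.2 CPM in pax2a-high against 3.86, 13.6 and 35.1 CPM in pax2a-low replicates 1, 2 and 3, with a log2 fold change of 1.46 (SE 1.36). The other named members of this list, clcn4, clcn5a and clcn6, had log2 fold changes of -4.74, -1.47 and -1.76, with standard errors of 3.12, 1.81 and 2.49; that of clcn6 was 0.36 with limma.

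Among CLC genes that did not pass the count filter, clcn2c was present almost entirely in 1 library. It had 5667 counts, or 703 CPM, in pax2a-low replicate 2 and at most 2 counts in each of the other 5. That library was also the one with clcnk. It held 16500 counts of the cotransporter gene slc12a10.2 (2047 CPM) against 12 and 129 in pax2a-low replicates 1 and 3, and 8926 counts of the bicarbonate cotransporter gene slc4a4b (1107 CPM) against 2 and 30. The latter gene was also present in pax2a-high libraries, with 216, 200 and 1066 counts in replicates 1, 2 and 3, more than in pax2a-low replicates 1 and 3. The cotransporter copies slc12a10.1 and slc12a10.3 had 74 and 598 counts there and 0 to 6 elsewhere. The ionocyte factor foxi3b was spread more evenly, at 334, 438 and 258 CPM in pax2a-low replicates 1, 2 and 3. These genes, other than slc12a10.2, were singled out after their values were seen, and near-identical slc12a10 copies may share reads.

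Another CLC channel gene, clcn2a, had 510 counts in pax2a-low replicate 1, 54 in replicate 2 and 0 in replicate 3 and in every pax2a-high library. Neither clcn2a nor clcn2c exceeded 2 counts in pax2a-low replicate 3, while clcn3, clcn5b, lrrc8aa and clic4 had counts in all 3 pax2a-low libraries. The gene bsnd encodes barttin, the subunit that mammalian ClC-K channels need to reach the membrane. It had 0, 42 and 176 counts in pax2a-high replicates 1, 2 and 3 and 0 in pax2a-low, so no library held counts of both clcnk and bsnd. The genes clcn2a, clcn3, lrrc8aa and bsnd lie outside the fixed rule and were singled out after their values were seen.

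**Figure D4:**
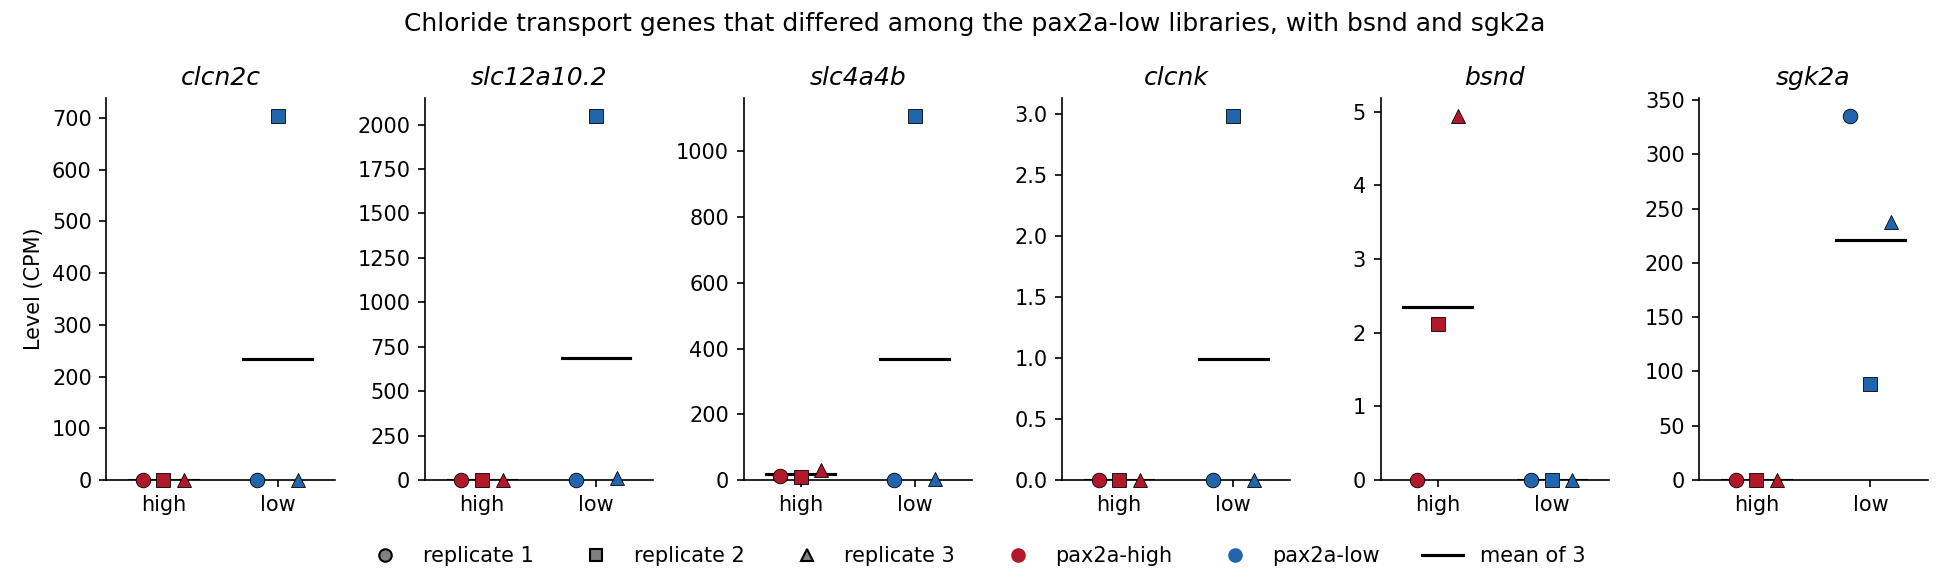
Levels in CPM of clcn2c, slc12a10.2, slc4a4b, clcnk, bsnd and sgk2a, with 1 point per library and a line at the mean of 3. The first 4 genes peak in pax2a-low replicate 2 (703, 2047, 1107 and 2.98 CPM), bsnd has counts only in pax2a-high replicates 2 and 3, and sgk2a is at 88.8 to 335 CPM in all pax2a-low libraries.

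Anoctamins include calcium-activated chloride channels and lipid scramblases. Over 8 tested genes the median log2 fold change was 0.87, and edgeR called 0, as did DESeq2 and limma, with 1 gene higher at an unadjusted p under 0.05. That gene was ano5a, at 194, 131 and 41.8 CPM in pax2a-high against 0.771, 39.7 and 25.1 CPM in pax2a-low replicates 1, 2 and 3 (log2 fold change 2.48, SE 1.09 and adjusted p = 0.290 by edgeR). The transcript of ano9a was at 110.0, 82.9 and 60.3 CPM against 0.386, 35.6 and 1.87 CPM. Its groups did not overlap, and the log2 fold change was 2.74 (SE 1.35), which missed the threshold; it was 6.13 without pax2a-low replicate 2. The remaining named genes, ano6 and ano10a, had log2 fold changes of -2.78 (SE 1.94) and 2.67 (SE 2.36).

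Other chloride channel families, the volume-regulated LRRC8 channels, bestrophins and tweety proteins among them, had a median log2 fold change of -0.06 over 10 tested genes. Calls numbered 0 by edgeR and limma and 1 by DESeq2, with 2 genes higher at an unadjusted p under 0.05. They were lrrc8da, at 6.59, 24.5 and 47.5 CPM in pax2a-high against 0, 1.24 and 0 CPM in pax2a-low replicates 1, 2 and 3, and lrrc8ab, at 2.56, 2.02 and 4.10 CPM against 0 in all 3. Both encode LRRC8 subunits. The edgeR adjusted p was 0.320 for lrrc8da and 0.221 for lrrc8ab, and only the first was called by DESeq2 (adjusted p = 0.0201). The tweety genes ttyh3a and ttyh3b had log2 fold changes of 1.68 (SE 1.14) and 1.45 (SE 2.08), and that of ttyh3b was -0.46 without pax2a-high replicate 3 and 12.36 without pax2a-low replicate 3, where its pax2a-low libraries are at 0.

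Apical actin linkers that bind CLIC5 or CFTR in mammals were followed because clic5a was the member with the widest separation. Over 8 tested genes the median log2 fold change was 0.99, edgeR called 0, and at an unadjusted p under 0.05 tprn was higher and ezra lower. The taperin gene tprn had 414, 326 and 196 counts in pax2a-high against 0 in all pax2a-low libraries and was 39.9-fold higher against the floor. This arrangement was that of clic5a, but also of clic5b, lrrc8ab, slc4a1a, sfxn1, tph1b and slc22a16. Its share over all genes was not counted. For tprn the adjusted p was 0.166 by edgeR and 0.000729 by DESeq2. The ezrin gene ezra was at 0.244, 0.202 and 0.393 CPM in pax2a-high against 60.1, 40.7 and 18.5 CPM in pax2a-low replicates 1, 2 and 3.

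For ezra the log2 fold change was -7.10 (SE 2.15 and adjusted p = 0.109 by edgeR), and it was called lower by DESeq2, by limma and without pax2a-low replicate 3. Its paralog ezrb, like slc5a5 above, was named after its values were seen; it had 4650, 6086 and 6149 counts in pax2a-high against 788, 2452 and 1296 in pax2a-low libraries, with a log2 fold change of 0.46. The scaffold gene slc9a3r1a, whose mammalian product ties CFTR to ezrin, was at 62.2, 55.0 and 55.0 CPM against 30.5, 18.1 and 3.12 CPM (log2 fold change 1.74, SE 1.21). The myosin gene myo6a had lower levels in pax2a-high, 8.79, 28.6 and 40.9 CPM against 82.3, 96.6 and 101 CPM (log2 fold change -1.83, SE 0.90), and neither passed.

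Kinases and cyclic AMP enzymes that regulate chloride channels had a median log2 fold change of -0.03 over 19 tested genes, of which 1, sgk2a, fell. WNK kinases act through the kinase SPAK, which phosphorylates chloride cotransporters. The row that the symbol table names wnk3 was at 103, 76.4 and 98.2 CPM in pax2a-high against 1.16, 8.68 and 0.156 CPM in pax2a-low replicates 1, 2 and 3, while the SPAK gene stk39 was at 0.0611, 1.72 and 6.35 CPM against 175, 57.4 and 26.5 CPM. Neither passed over all genes by edgeR (adjusted p = 0.0897 for wnk3 and 0.112 for stk39), and each passed under some alternatives, 5 of 13 for wnk3 and 4 of 13 for stk39.

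The gene ahcyl1 encodes IRBIT, which in mammals activates CFTR and bicarbonate cotransporters. Its levels were 14.9, 36.3 and 44.4 CPM in pax2a-high against 164, 284 and 112 CPM in pax2a-low replicates 1, 2 and 3 (log2 fold change -2.55, SE 0.71 and adjusted p = 0.0761 by edgeR). The groups did not overlap, as for 1016 of the 12524 tested genes in that direction, and 6 of 13 alternatives called it lower. The protein kinase A regulatory gene prkar1aa had a log2 fold change of 2.24 (SE 1.05 and adjusted p = 0.340 by edgeR).

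Cotransporters and exchangers of chloride and bicarbonate, a list that holds both chloride importers and the potassium-chloride exporters slc12a4, slc12a7a and slc12a7b, had a median log2 fold change of -0.89 over 13 tested genes. Calls numbered 0 by edgeR and limma and 1 by DESeq2, and at an unadjusted p under 0.05, 2 genes were higher and 2 lower. The cotransporter slc12a2, which brings chloride in at the basolateral side of secretory epithelia, was at 41.4, 22.5 and 8.98 CPM in pax2a-high against 109, 59.7 and 138 CPM in pax2a-low libraries (log2 fold change -2.07, SE 0.90 and adjusted p = 0.278 by edgeR). The anion exchanger gene slc4a2b was at 227, 237 and 217 CPM against 126, 34.4 and 76.7 CPM (1.53, SE 0.61 and adjusted p = 0.218 by edgeR). The exchanger gene slc4a1a had 236, 181 and 403 counts in pax2a-high against 0 in pax2a-low libraries, 29.5-fold higher against the floor. The adjusted p was 0.185 by edgeR and 0.00318 by DESeq2. It is also one of the erythrocyte markers summed above, among which the haemoglobin rows were at 0 in pax2a-high replicates 1 and 2. The part of erythrocytes in its level was not tested. The log2 fold change of slc12a10.2 was -11.80 (SE 3.62 and adjusted p = 0.218 by edgeR), and -5.10 without pax2a-low replicate 2.

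The pendrin gene slc26a4, the apical iodide and chloride exchanger of the mammalian thyroid, had 78, 2 and 140 counts in pax2a-high against 0 in pax2a-low libraries and did not pass the count filter. It shared with clic5b a low value in pax2a-high replicate 2. It was singled out for its role, after its values were seen.

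**Figure D5:**
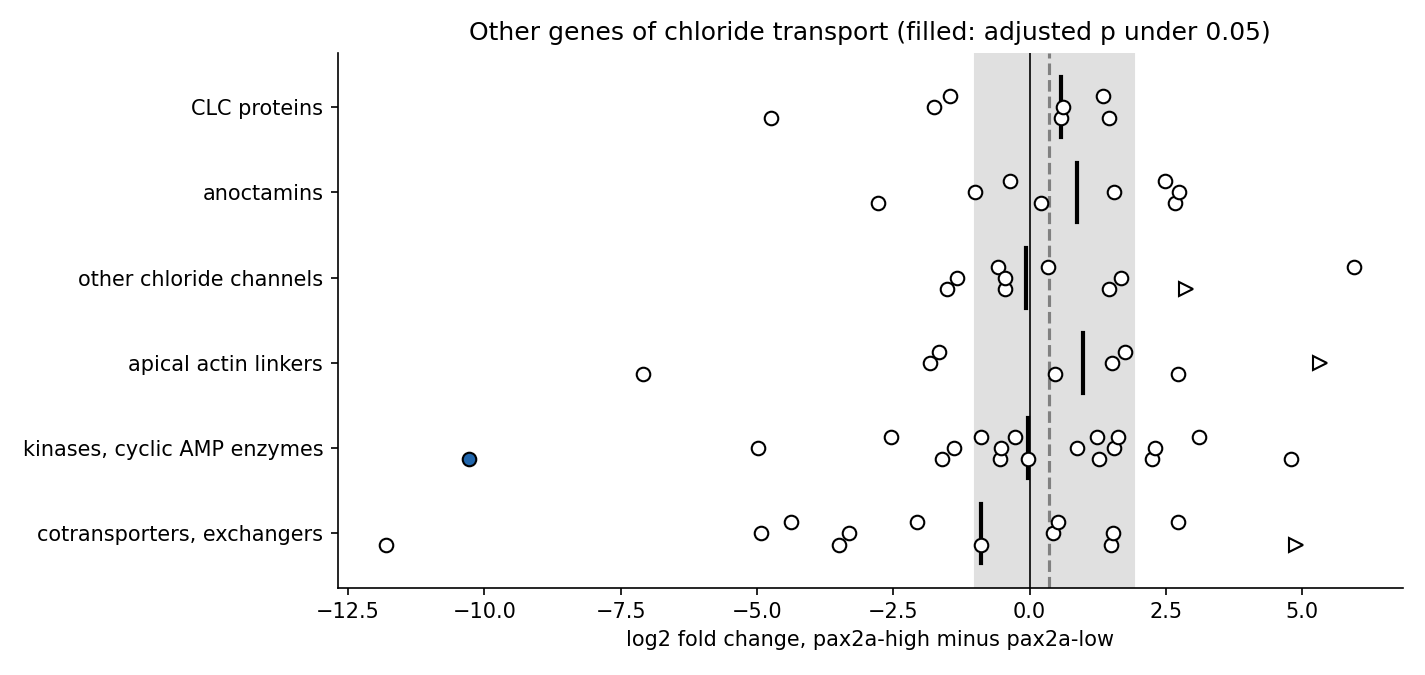
Log2 fold change (pax2a-high minus pax2a-low) of each tested gene in the 6 lists, with a bar at the list median, arrowheads for lower bounds of genes at 0 counts in pax2a-low, and a grey band for the middle 50% of all genes tested. List medians run from -0.89 to 0.99 and all lie inside the band (-1.0 to 1.92), and sgk2a (-10.29) is the filled point.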

How the data were processed

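The deposited values are whole-number counts of reads per gene for 6 libraries, not normalized. The submitters' processing notes name HISAT2, featureCounts and the build GRCz11; their versions, the strandedness and the handling of multi-mapping reads are not given in the sources used here. Even counts made up 67.8 to 89.0% of counts above 0, and the sources used here mention no molecular identifiers. Reads are therefore not taken as separate molecules. Floors and intervals treat each count as independent and leave out the spread between libraries. Intervals may thus be too narrow, and folds against a floor too large.

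Genes were matched by the table's names, then by a symbol table. The fit used edgeR 4.0.16 in R 4.3.3 (filterByExpr, TMM, robust quasi-likelihood, group alone, Benjamini-Hochberg over 12524 genes, threshold 0.05). It was tested on simulated data with less spread between libraries than the real ones, whose common biological coefficient of variation was 1.499. CPM are over the TMM-scaled library size, and standard errors come from the quasi-likelihood statistic. A fold against a group at 0 uses 3 counts per library, averaged over the group. Without gene lengths, levels were not compared between genes, and no promoter or protein sequences were used.

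Members and lists were chosen with earlier results of these data known. The text names all members, per list every called gene and the 4 others with the smallest p, and the 3 genes closest to each tested member. The gene lists cover CLC proteins, anoctamins, other chloride channels, actin linkers, kinases and cyclic AMP enzymes, and cotransporters and exchangers, with marker lists for 8 cell types. Alternatives were other scalings and filters, DESeq2 1.42.0, limma 3.58.1, a replicate block, and leaving out each library.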

Additional observations from a re-analysis of the deposited data

How the results depend on the processing

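The kinase gene sgk2a was called lower under all 13 alternatives, while counts of calls moved. Calls of members are listed for completeness and test nothing, since this contrast chose the names. Without a count filter, 328 genes were called higher and 299 lower, with 1 CLC gene (clcn2a) lower and 1 kinase higher and 3 lower. A filter of 5 CPM in 3 libraries gave 73 higher. DESeq2 gave 820 higher and 511 lower, 2 members (clic5a and clic5b), 1 other chloride channel, 1 linker and 1 exchanger higher, 1 linker lower, and 1 kinase higher and 3 lower. Limma gave 309 lower, 1 linker and 2 kinases among them, and DESeq2 size factors in edgeR gave 2 kinases lower. With the replicate block 425 genes were called higher, 1 linker and 1 kinase among them, and the log2 fold change of clic3 was -6.41. Same-numbered libraries deviated together with r of 0.034, 0.051 and 0.071, and each correlated best with its own number. These values are small and do not settle whether same-numbered libraries are paired. The deposited column names write the number as a set, without saying what a set shares.

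Leaving out 1 library gave 40 to 270 genes higher and 120 to 253 lower (40 and 120 without pax2a-high replicate 1), and 0 to 1 CLC genes lower, other channels higher, linkers higher or lower, kinases higher and cotransporters lower, with 1 to 3 kinases lower. The log2 fold change ran from -9.62 to -3.31 for clic3, -0.71 to 0.80 for clic1 and -2.29 to -0.11 for ano1. That of clic1 was also positive with limma (1.72) and the block (0.75). Log2 bounds, taken from the counts and not from a fit, stayed between 9.16 and 10.14 for clic5a and between 4.43 and 5.51 for clic5b. The gene clic5b did not pass the count filter without pax2a-high replicate 1 or without pax2a-high replicate 3. It also did not pass the filter of 5 CPM in 3 libraries. Of 25 named partner genes, 19 moved by over 1.5 times when 1 library was left out. Among them, lrrc8da was 11.87 without pax2a-low replicate 2 and clcn4 was -9.40 without pax2a-high replicate 3, each with a group left at 0 counts. Values were -11.79 for sgk2a without pax2a-high replicate 3, and 7.19 for wnk3 and 6.13 for ano9a without pax2a-low replicate 2. With the block, slc12a10.2 was -6.61 and ano9a 4.78. The sign of 2 turned: clcn6 went to 0.36 with limma and ttyh3b to -0.46 without pax2a-high replicate 3, and the cause was not tested. Leaving out pax2a-low replicate 3 gave 12.36 for ttyh3b, a value that rests on pax2a-low libraries at 0 counts. At a minimum of 10 counts, 1 member was detected in pax2a-low replicate 1. Thinning every library to the shallowest left the number of detected members at 4, 5 and 5 (pax2a-high) against 2, 4 and 4 (pax2a-low). A count of 0 allows up to 0.578 CPM in the shallowest library. No promoter motif search was run.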
